A study of Homo sapiens with 18 samples.

Results

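The comparison described here set 3 lysates of HEK293T cells that overexpressed Flag-SBP2 against 3 lysates of the same cells that received a Flag vector, before any precipitation. Its members are 6 of the 18 libraries of an RNA immunoprecipitation series (RIP-seq, in which RNA is recovered together with a tagged protein), namely the inputs of both groups, and each was placed by its title. HEK293T is an established line of human embryonic kidney origin, easy to transfect, and the growth protocol calls the cells HEK293. All cells were transfected transiently with PolyJet and lysed 48 hours later in a buffer with NP40, and neither of these groups received selenite. The other libraries are another group of inputs, from Flag-SBP2 cells given 100 nM sodium selenite, and the anti-Flag RIP libraries of the 3 groups. The input was 1 part in 5 of each lysate, taken before the beads were added.

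SBP2 binds SECIS elements, the RNA hairpins that let a UGA codon in a selenoprotein mRNA be read as selenocysteine. It helps to bring the dedicated elongation factor and the selenocysteine tRNA to the ribosome. The inputs measure the amounts of RNA in the lysate before any recovery through SBP2, and so address the effect of SBP2 overexpression on RNA levels. The labels do not say which promoter drove the plasmid, which share of cells took it up, or whether replicates came from separate days, so p-values measure the spread between these samples. The values are means over all cells of a lysate, and a change in the make-up of the cells and a change in RNA per cell cannot be told apart.

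Genes were given as Ensembl IDs, and 0 of the 59792 entries of the reference gene table carried such an ID. The files do not pair IDs with symbols, so neither the transfected gene nor the selenoprotein genes, the stress response lists or the markers of HEK293 and other cells were looked up by name. At most 2 IDs in each direction are given, and no promoter sequence is shown. Levels are counts per 1000000 (CPM) scaled by TMM factors, not divided by gene length. The factors were set over the 9 inputs for inputs, and separately over the 9 RIP libraries for RIP. The CPM of an ID is therefore compared between libraries of the same kind. Across IDs it says only how many counts lie behind each value, not which RNA is more abundant.

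The 6 inputs held 15.2 to 22.2 M counts (M, counts divided by 1000000), with 18.2 ± 2.78 M in the control and 18.3 ± 3.44 M with SBP2 (SD, n = 3). Between 22712 and 24596 IDs had at least 1 count in a library. The 100 IDs with most counts took 19.7 to 20.6% of the counts in control inputs and 20.4 to 21.5% with SBP2. The first principal component of the 6 inputs carried 39.3% of the variance and placed SBP2 libraries at -27.3, -20.7 and -5.30 and control libraries at -2.02, 19.2 and 36.1. The second, with 23.2%, separated control replicate 1 (36.0) from the other 5 libraries (-13.9 to -1.35). Control inputs were the more variable group: the median SD of log2 CPM over IDs was 0.185 in the control and 0.135 with SBP2, and 65.2% of IDs had the larger SD in the control.

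With Flag-SBP2, 60 IDs were higher and 86 lower in the lysate than with the Flag vector, at an edgeR quasi-likelihood adjusted p below 0.05 over the 16616 IDs tested, in a model of groups alone with no term for replicate number. These are 0.361% and 0.518% of the IDs, together 0.879%. The selenite inputs were part of this fit. Over the 6 compared libraries alone, the test called 45 IDs higher and 63 lower, including 42 of the 60 and 58 of the 86. With the replicate number as a block and the selenite inputs kept, the same test called 1233 IDs higher and 1501 lower. The number of calls therefore depended strongly on the block. Among the IDs called without the block, the increases were the larger changes. Their median was 1.03 on the log2 scale (2.04-fold), 32 of the 60 reached 2-fold and 12 reached a log2 change of 2. The decreases had a median size of 0.64 (1.56-fold), 5 of the 86 reached 2-fold and 0 reached a log2 change of 2. Counting depth limits this contrast. Among the 4154 IDs with fewest counts, 19 increases and 2 decreases were called, and the smallest change called was 0.96. Among the 4154 with most counts it was 0.41. Without any 1 of the 3 SBP2 libraries or control replicate 2 or 3, the increases of 2-fold or more numbered 15 to 20, and without control replicate 1 they numbered 96. The decreases of this size numbered 1, 2 and 1 without SBP2 replicate 1, SBP2 replicate 2 and control replicate 3. They numbered 7 without SBP2 replicate 3, 7 without control replicate 2 and 21 without control replicate 1. The highest increase was 5.69 on the log2 scale, while the largest decrease was -1.20.

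ENSG00000187742 had the highest increase of all IDs called. Its level was 54.6, 49.9 and 55.3 CPM in control inputs 1, 2 and 3, and 3001, 2730.5 and 2505 CPM in the SBP2 inputs of the same numbers. The 3 SBP2 libraries lay far above the control libraries. Lack of overlap between the input groups was part of the rule that picked each ID given here, so it is no separate result. The change was 5.69 on the log2 scale (51.5-fold, SE 0.148, edgeR adjusted p = 7.73e-12), and the mean share of all counts went from 0.00524% to 0.274%. Counts from a plasmid that carries a gene's coding sequence and from the cell's own gene fall on the same ID, so the table does not tell these sources apart for any ID. Whether the plasmid gave this increase was not tested. The numbers of higher IDs given here leave out no ID on this ground.

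ENSG00000130513 was next among the IDs whose log2 CPM averaged at least 1 over the 6 inputs. It lay at 1.10, 1.45 and 1.31 CPM in control inputs and at 10.7, 12.4 and 12.8 CPM in SBP2 inputs. Every SBP2 library was above every control library by a wide margin, although the control values rest on only 16, 27 and 27 counts. The increase was 3.20 on the log2 scale (9.20-fold, SE 0.17, edgeR adjusted p = 1.03e-07).

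ENSG00000143224 had the largest decrease among IDs at this level. Control inputs held 30.1, 26.4 and 36.5 CPM, and SBP2 inputs 13.5, 10.8 and 15.9 CPM. The lowest control library was above the highest SBP2 library. The log2 change was -1.20 (SE 0.169, edgeR adjusted p = 0.00491), a level 2.31-fold lower with SBP2.

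ENSG00000196668 followed, with 4.20, 3.98 and 4.80 CPM in control and 1.77, 1.97 and 2.28 CPM in SBP2 inputs. The groups again did not overlap. Its log2 change of -1.09 (SE 0.205, edgeR adjusted p = 0.0251) rested on 27 to 51 counts in each SBP2 library. The call was lost without control replicate 2 or 3 (edgeR adjusted p = 0.0619 and 0.109) and without SBP2 replicate 1, 2 or 3 (0.144, 0.140 and 0.0572).

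**Figure D1:**
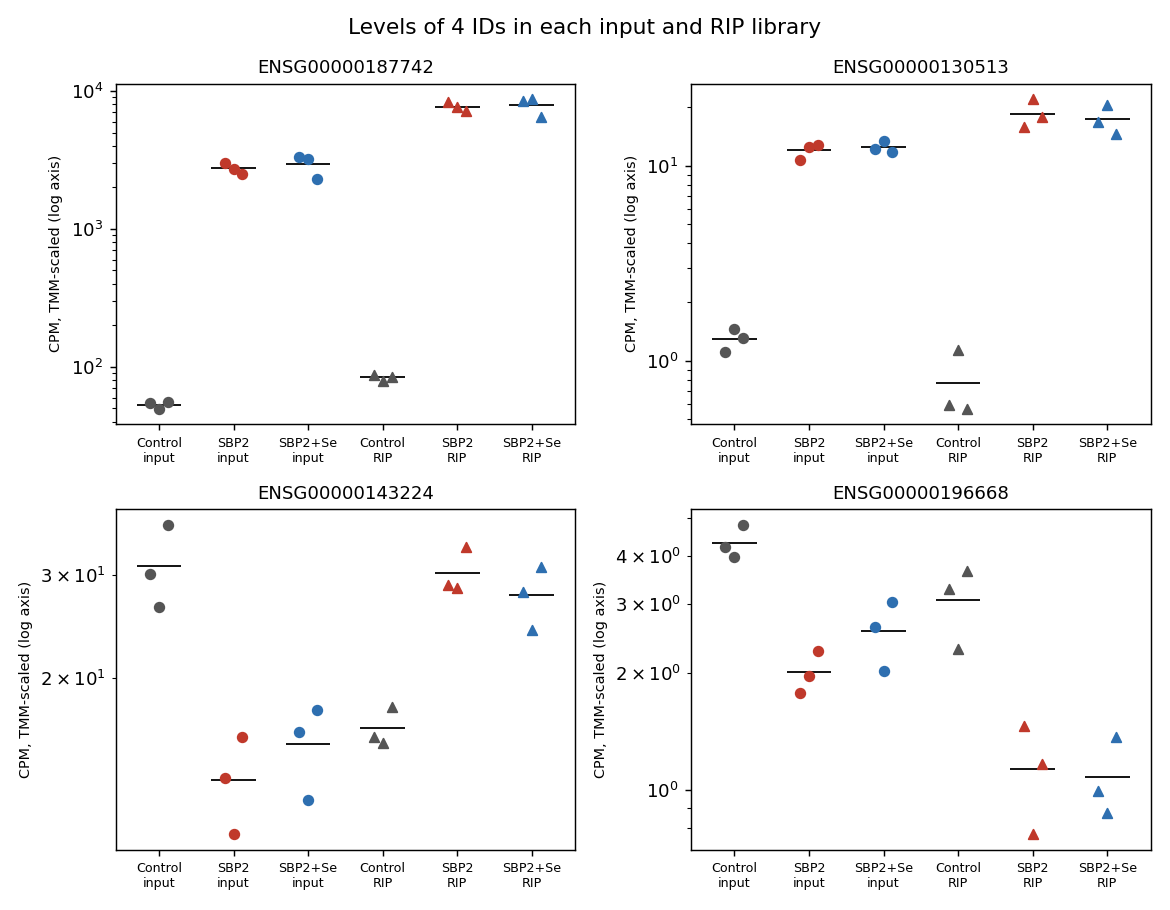
TMM-scaled CPM on a log axis of the 4 IDs in the 3 libraries of each group, with inputs as circles, RIP libraries as triangles and a line at each group's mean. Inputs and RIP libraries were scaled separately. The SBP2 inputs do not overlap the control inputs in any panel, as the rule that picked the IDs required. ENSG00000143224 is lower with SBP2 in inputs but higher with SBP2 in RIP libraries.

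Among the called IDs, 46 higher and 85 lower ones averaged a log2 CPM of at least 1, and the 15 largest changes of each direction were described further. The 15 increases ran from 1.05 to 5.69 on the log2 scale with a median of 1.41, and all 15 were at least 2-fold. The ID ranked 3 rose from a mean of 14.7 to 79.1 CPM. The 15 decreases ran from -1.20 to -0.89 with a median of -0.97, and 4 reached 2-fold. The edgeR adjusted p ran from 7.73e-12 to 0.0251 for the increases and from 0.00491 to 0.0498 for the decreases. Single SBP2 libraries lay at 1.64 to 56.3 times the control mean for the increases and at 0.349 to 0.611 times for the decreases. Single control libraries lay at 0.482 to 1.45 times their own mean for the first set and 0.745 to 1.44 times for the other. Replicate 3 held the highest of the control values for 15 of the 15 decreases and the highest of the SBP2 values for 14 of them. For the 15 increases the highest control value was in replicate 1, 2 or 3 for 2, 10 and 3 IDs. These counts by replicate were not made over all IDs tested, so they do not set these IDs apart from the rest.

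**Figure D2:**
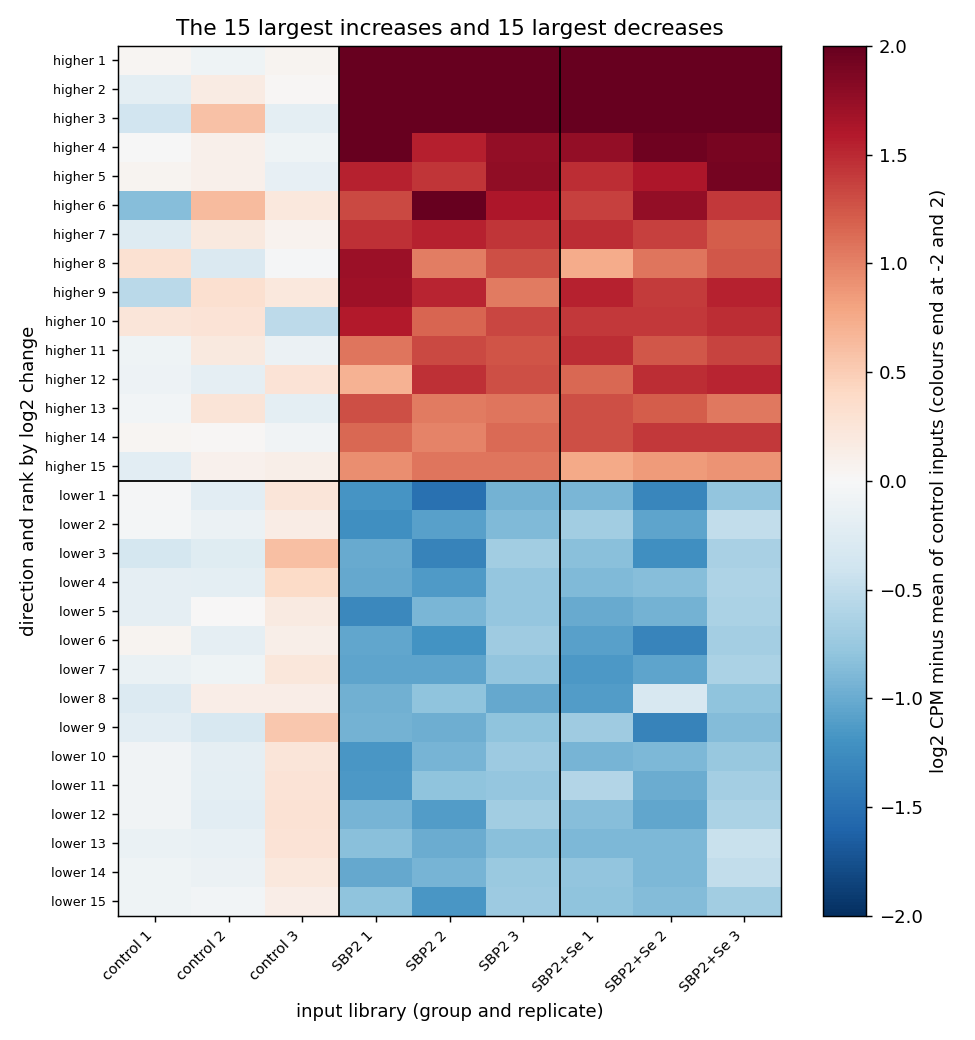
Log2 CPM minus the mean of the control inputs, in the 9 input libraries (columns, by group and replicate), for the 15 largest increases and 15 largest decreases (rows, by rank). Colours end at -2 and 2. The SBP2 columns are red in the upper block and blue in the lower one in all 3 replicates. This follows from the rule, which picked IDs whose groups do not overlap.

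Most IDs differed little between the groups. The median change over all 16616 IDs was -0.0085, 5% of IDs lay below -0.45 and 5% above 0.54, and 90.4% lay within 0.5 of zero on the log2 scale. The median SE was 0.145. Before adjustment, 2500 IDs (15% of those tested) had an edgeR p below 0.05, 1014 of them higher and 1486 lower, where evenly spread p-values would give 830.8. Libraries of both groups did not overlap for 1346 higher IDs (8.1%) and 2089 lower IDs (12.6%). These counts include all 60 and all 86 called IDs. No ID went from 0 counts in every control input to 10 or more in each SBP2 input, or the reverse (0 and 0 IDs).

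Increases and decreases were called at different counting depths. IDs were split into 4 equal bins by mean log2 CPM over the 9 inputs, 4154 in each. In the bin with fewest counts, up to a log2 CPM of 1.70, 19 IDs were called higher (0.457%) and 2 lower (0.0481%). In the next, 27 were higher and 19 lower. In the third, 9 were higher and 29 lower, and in the bin with most counts 5 were higher (0.12%) and 36 lower (0.867%). The median SE fell from 0.345 in the first bin to 0.102 in the last, and the smallest change called fell with it, from 0.96 to 0.41. The median change of all IDs also differed between the first and last bins, at 0.066 and -0.043 on the log2 scale. In addition, 168 increases and 68 decreases of 2-fold or more were not called, and their median level was a log2 CPM of -0.63.

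**Figure D3:**
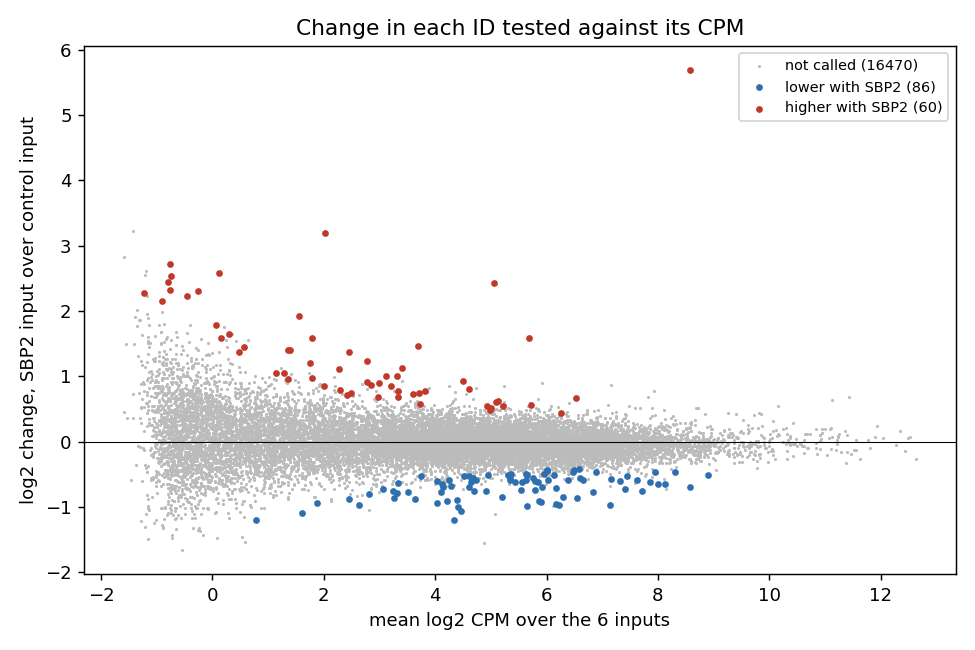
Log2 change of SBP2 over control inputs (vertical axis) against the mean log2 CPM of the 6 inputs (horizontal axis), 1 point per ID tested. Called increases (60, red) lie mostly at low and middle CPM, and called decreases (86, blue) form a narrow band mostly between -1.2 and -0.4 at middle and high CPM.

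The number of calls depended on single libraries. Without control replicate 1, which stood apart on the second principal component, 398 IDs were higher and 339 lower. Without control replicate 2 the counts were 20 and 27, and without control replicate 3 they were 31 and 17. Omission of SBP2 replicate 1 left 19 higher and 6 lower, of replicate 2 left 17 and 4, and of replicate 3 left 23 and 27. Leaving out a library of either group turned the direction of 0 of the 146 called IDs. This was largely fixed beforehand, since the groups did not overlap for any of them. Under upper-quartile scaling the split was 64 higher and 57 lower (52.9% higher), against 41.1% higher with TMM. With TMM, decreases outnumbered increases over all libraries and with the low-count filter, but not without that filter (370 higher and 311 lower) or without control replicate 1 or 3 or SBP2 replicate 1 or 2.

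A smaller set was called in the same direction under each of the 16 alternatives. It held 14 of the 60 higher and 4 of the 86 lower IDs. The alternatives comprised other scalings, filters, tests and library sets, the replicate number as a block, and the omission of each of the 6 compared inputs. No selenite input was left out singly. The 14 increases ran from 0.93 to 5.69 with a median of 1.42, and the 4 decreases from -1.20 to -0.86 with a median of -0.94. ENSG00000187742, ENSG00000130513 and ENSG00000143224 were among these 18 IDs. ENSG00000143224 passed only narrowly without SBP2 replicate 1 or 2 (edgeR adjusted p = 0.0385 and 0.0447). Of the 60 higher IDs, 56 were called under all 3 other scalings and 53 by both DESeq2 and limma voom. Of the 86 lower IDs, 57 and 82 were.

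**Figure D4:**
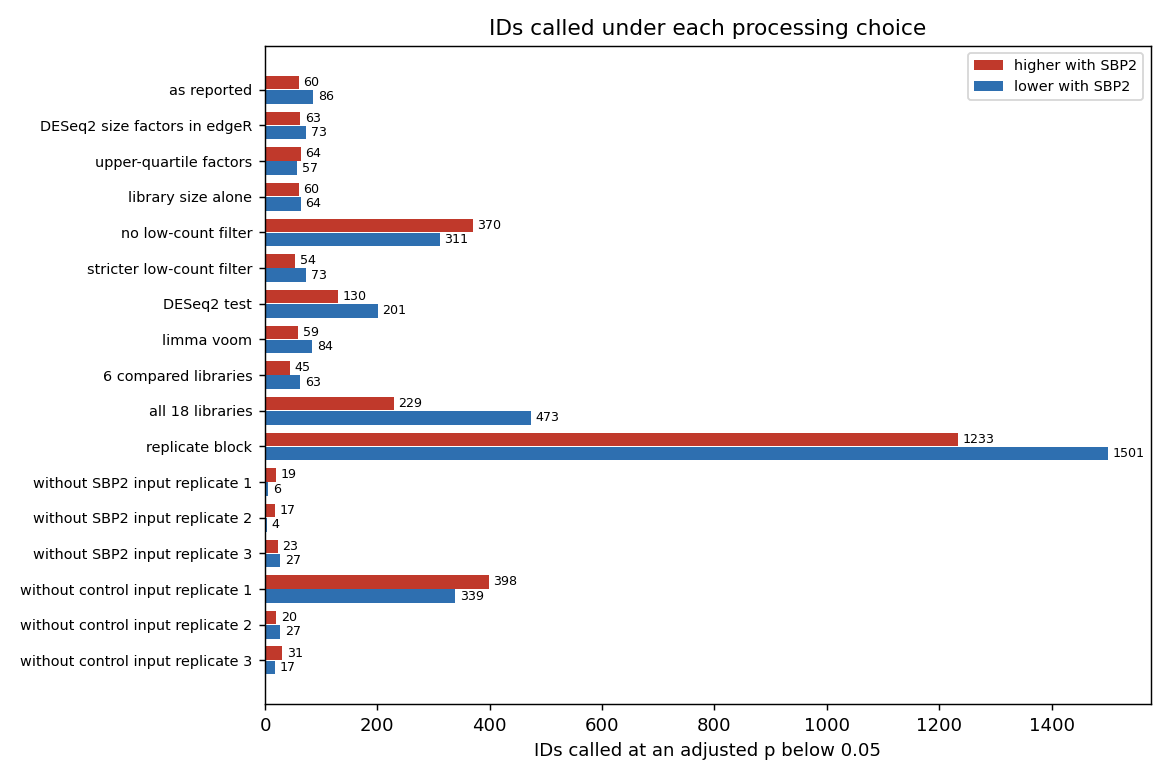
Number of IDs called higher (red) and lower (blue) with SBP2 at an adjusted p below 0.05 (horizontal axis, from 0) as reported and under each of 16 alternatives (vertical axis). Counts run from 17 to 1233 for higher and from 4 to 1501 for lower IDs, with the most calls under the replicate block.

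The inputs with selenite are further lysates of Flag-SBP2 cells, and their comparison with the control uses the same 3 control inputs, so both sets of values share the noise of those libraries. That comparison called 51 IDs higher and 41 lower (0.307% and 0.247%, together 0.554%), with 55.4% of them higher, against 67.8% and 68.6% under upper-quartile and library-size scaling. The share higher was 50% with limma voom, 45.6% with the DESeq2 test and 40.1% in a fit over 18 libraries. With the replicate number as a block it was 33.2%. Omission of control replicates 1, 2 and 3 gave 59 and 69, 28 and 26, and 35 and 10 IDs, and of selenite replicates 1, 2 and 3 gave 21 and 8, 22 and 1, and 48 and 86. ENSG00000187742 lay at 3352, 3191 and 2316 CPM in them, a log2 change from the control of 5.79 (SE 0.149). ENSG00000130513 lay at 12.2, 13.4 and 11.7 CPM, a change of 3.25 (SE 0.17). ENSG00000143224 lay at 16.2, 12.4 and 17.7 CPM, a change of -1.01 (SE 0.168, edgeR adjusted p = 0.0148), and its call was lost without selenite replicate 1 or 2 (0.0547 and 0.120). ENSG00000196668 lay at 2.63, 2.02 and 3.04 CPM, all below the control libraries, and its change of -0.75 did not pass (SE 0.199, edgeR adjusted p = 0.123).

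RIP libraries are separate libraries made from the same lysates, so a difference between single lysates can recur in them. They are no independent repeat of the inputs. A level in RIP reflects both the amount in the lysate and the recovery on the beads. SBP2 RIP was therefore set against control RIP without the inputs, and this test called 62.2% of 17139 IDs, with 31.6% higher and 30.6% lower. All 146 IDs were measured there. Of the 60 higher in inputs, 49 (81.7%) were also higher in RIP, 4 were lower and 7 did not pass, with a median log2 change of 1.10 against 0.0041 over all IDs. Of the 86 lower in inputs, 52 (60.5%) were lower in RIP, 17 (19.8%) were higher and 17 did not pass, with a median of -0.41. Under library size alone, 11 and not 17 of the lower IDs were higher in RIP.

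ENSG00000187742 rose in RIP from 87.6, 78.9 and 85.0 CPM with the vector to 8292, 7637 and 7205 CPM with SBP2, a log2 change of 6.52 (SE 0.116, edgeR adjusted p = 5.9e-23). ENSG00000130513 rose from 0.593, 1.13 and 0.568 to 15.7, 22.0 and 17.8 CPM, a change of 4.62 (SE 0.207, edgeR adjusted p = 2.29e-15). ENSG00000196668 fell from 3.28, 2.30 and 3.66 to 1.46, 0.770 and 1.17 CPM, a change of -1.45 (SE 0.247, edgeR adjusted p = 1.68e-05). ENSG00000143224 went the opposite way from its input level: it rose from 15.9, 15.5 and 17.8 CPM in control RIP to 28.8, 28.5 and 33.4 CPM in SBP2 RIP, with no overlap. This change was 0.88 on the log2 scale (SE 0.102, edgeR adjusted p = 6.03e-08), beside -1.20 in the inputs. Among the 15 largest decreases in inputs, 12 were lower and 2 higher in RIP, and among the 15 largest increases 11 were higher and 1 lower. Over all 17139 IDs tested in RIP, 31.6% were higher and 30.6% lower.

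**Figure D5:**
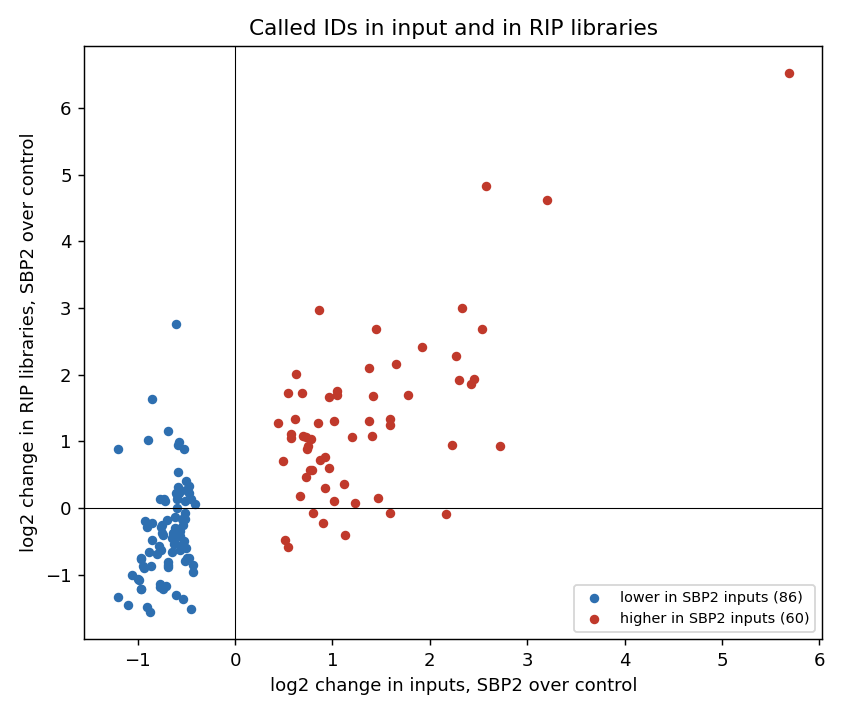
Log2 change of SBP2 over control in inputs (horizontal axis) and in RIP libraries (vertical axis) for the 146 IDs called in inputs. Most of the 60 higher IDs (red) lie above zero on the vertical axis, while the 86 lower IDs (blue) spread to both sides of it.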

How the data were processed

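The authors deposited whole-number counts per Ensembl gene ID for 18 libraries, made with Trim Galore 0.6.6, STAR 2.7.6a and featureCounts 2.0.1 on GRCh38, per the submitters' processing notes. The sources used here do not name the annotation, the strand setting or the handling of multi-mapped reads, so overlapping genes, antisense partners and paralogs may share counts. Libraries were polyA RNA, per the labels.

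IDs were kept by filterByExpr (minimum count 10, minimum total 15), scaled by TMM and tested with edgeR 4.0.16 (two-sided quasi-likelihood test, Benjamini-Hochberg adjustment, threshold 0.05) in R 4.3.3. Input comparisons used 1 group-means model over 9 inputs, and the RIP comparison 1 over 9 RIP libraries. Log2 CPM used a prior count of 2. SEs came from the test statistic. Alternatives included DESeq2 1.42.0 and limma 3.58.1.

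IDs were ranked by log2 change among those with a passing adjusted p, an average log2 CPM of at least 1 and no overlap between groups. The first 2 of each direction are given. Parts of this rule that need gene symbols, and the gene lists, were not used. The comparison, rule and lists were chosen with earlier results of these data known. Chi-square per degree of freedom between replicates of a group was 5.07 to 29.3, and each library was counted once.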

Additional observations from a re-analysis of the deposited data

How the results depend on the processing

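Over 16 alternatives for each comparison, the 4 IDs kept their directions in the inputs and in RIP. In the inputs this was largely fixed beforehand, as these IDs were picked for groups that do not overlap. For SBP2 against control inputs (60 higher, 86 lower), the DESeq2 test gave 130 and 201, no low-count filter 370 and 311, and a fit over 18 libraries 229 and 473, while upper-quartile factors gave 57 lower. A fit over the 6 compared libraries, without the selenite inputs, gave 45 and 63. Leaving out 1 of the compared libraries gave 17 to 398 higher and 4 to 339 lower. The counts at 2-fold or more, 32 and 5, ran from 15 to 120 and from 1 to 29. For SBP2 with selenite against control inputs (51 higher, 41 lower), the DESeq2 test gave 94 and 112, no filter 162 and 167, a fit over 18 libraries 144 and 215, a fit over the 6 compared libraries 21 and 11, and library size alone 27 lower. Leaving out 1 of the compared libraries gave 21 to 59 higher and 1 to 86 lower. SBP2 against control RIP (5421 higher, 5244 lower) stayed within 1.5 times of these counts throughout. The cause of these shifts was not tested.

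With the replicate number as a block the counts were 1233 and 1501 for SBP2 inputs, 375 and 755 for selenite inputs, and 5639 and 5467 for RIP. For inputs of the same number, deviations from the SBP2 and control group means correlated at 0.280, 0.0929 and 0.320 over 16116 IDs. Pairs of different numbers reached at most 0.0552. The value of 0.0929, for replicate 2, lay just below the limit of 0.1 set for pairing. By that limit alone, the reported counts come from the model without the block. The median SE for SBP2 inputs was 0.103 with the block and 0.145 without it. Each of the 6 inputs correlated best with its own number in the other group, which is a hint from the data and not the design. All 146 called IDs were also called with the block, and ENSG00000196668 passed with selenite only under it (log2 -0.75, edgeR adjusted p = 0.013).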
